A study of Mus musculus with 8 samples.

Results

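Group 2 innate lymphoid cells (ILC2s) of visceral fat were compared between mice on a high-fat diet and mice on a normal diet for the genes that write and erase histone and DNA marks. The set was taken by gene symbol from the protein-coding genes of the table: every Kdm, Hdac, Sirt, Kat and Kmt symbol followed by a digit, Tet1, Tet2 and Tet3, every Dnmt symbol, and Ezh1, Ezh2, Crebbp and Ep300, provided that no value was below 0. This gave 59 of 39527 genes. No expression level entered the rule, but the set was chosen with earlier results of these data known. Of the 59 genes, 56 reached 1 FPKM (fragments per kilobase of gene, corrected for sequencing depth) in at least 4 of 8 libraries and were tested, and 3 did not. The H4K20 methyltransferases Setd8, Suv420h1 and Suv420h2 and the acetyltransferase Csrp2bp stand in the table under these older symbols and were therefore not part of the set.

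The high-fat group and the normal-diet group were both wild-type C57BL/6 males aged 14 weeks. Each diet was given for 8 weeks, from 6 weeks of age. ILC2s were sorted from the epididymal fat pad, and 4 libraries per diet were sequenced from full-length cDNA. The labels do not say whether a library is 1 mouse or a pool, so the p-values reflect library-to-library spread alone, part of which may be technical. Because the RNA is bulk, fewer cells of a type and less RNA per cell cannot be told apart.

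Lysine acetyltransferases add acetyl groups to histone tails and are generally linked to open chromatin, and deacetylases remove them. Methyltransferases and demethylases act on single lysines with opposite effects that depend on the residue, such as H3K4 methylation at active promoters and H3K27 methylation at Polycomb targets. Dnmt enzymes methylate cytosine in CpG dinucleotides, and Tet enzymes oxidise the methyl group. Several of these enzymes need a metabolite of central metabolism, among them S-adenosylmethionine, acetyl-CoA, NAD, FAD and 2-oxoglutarate. ILC2s of visceral fat make type 2 cytokines and are known for sustaining eosinophils in that tissue.

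The result turned on Kdm2b, a JmjC demethylase of H3K36 whose CXXC zinc finger binds unmethylated CpG and which brings a variant Polycomb repressive complex 1 to CpG islands. RefSeq (build GRCm38.p6) lists 4 start sites for Kdm2b in 2 regions, whose most upstream starts lie 88732 bases apart. The internal region starts a shorter form, known to lack the demethylase domain. The deposited value is given per gene, so the forms were not separated. The 200 bases upstream of the internal start are printed because they hold no annotated exon and because CpG is the dinucleotide that the Kdm2b protein reads. They lie at chr5:122900368-122900567 on the minus strand, and capitals mark each CpG.
Kdm2b internal start, upstream window: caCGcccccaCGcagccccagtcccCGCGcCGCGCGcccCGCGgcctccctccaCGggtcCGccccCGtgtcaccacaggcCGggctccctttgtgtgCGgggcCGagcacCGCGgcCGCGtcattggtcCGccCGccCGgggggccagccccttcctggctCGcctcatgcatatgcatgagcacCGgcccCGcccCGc
The window held 26 CpG at a G+C content of 78.5%, and 5.31% of the 32851 RefSeq upstream windows of this length held at least as many. The median over all windows was 5 CpG, and over the 70 windows of the 48 enzyme genes that matched RefSeq it was 12. On both strands together this internal Kdm2b window held the GC box GGGCGG 4 times, counting a pair of overlapping matches separately, a motif present in 31.0% of all windows and in 50% of the enzyme windows. Neither the E-box CACGTG, present in 5.26% of windows, nor the cyclic AMP element TGACGTCA, present in 1.47%, was found in these letters. The windows at the starts of the upstream region, which overlap annotated Kdm2b exons, held 19 and 11 CpG and 0 GC boxes.

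The libraries held between 9005363 and 15752815 reads, recovered from the deposited values. These totals may be too high, since reads of some genes may be a multiple of the true number. Between 10763 and 13663 genes per library stood at 1 FPKM or more. High-fat library 2 was the shallowest, had the most genes at 1 FPKM and stood with normal-diet library 2 at opposite ends of the first principal component, which held 28.2% of the variance. High-fat library 2 was the lowest of its diet for 29 of the 56 tested enzymes, so results were also computed without it. All 15 ILC2 markers were expressed and tested. They summed to 7419 to 8405 FPKM in high-fat libraries and 9164 to 11120.3 FPKM in normal-diet libraries, without overlap. Of the 15, 3 were called lower and 0 higher, beside 1.88% and 0.975% of all tested genes. Mast cell markers summed to 1606 to 7711 FPKM in high-fat libraries and 3620.05 to 7754 FPKM in normal-diet libraries, and T cell markers to 852 to 1632 FPKM in high-fat libraries and 796 to 1068 FPKM in normal-diet libraries. Endothelial markers summed to 26.7 to 138 FPKM in high-fat libraries, against 14.6 to 21.1 FPKM in normal-diet libraries, with 1 of 3 tested called higher and Cdh5 under 1 FPKM in all libraries. Sums of adipocyte and stromal markers were 6.81 to 35.6 FPKM in high-fat libraries, against 3.20 to 10.3 FPKM in normal-diet libraries, with Adipoq, Plin1, Lep and Pdgfra under 1 FPKM throughout. Sums of B cell, macrophage, and eosinophil and neutrophil markers were at most 10.2 FPKM in any library. The part of these other cells in the results below, and that of the lower ILC2 marker sums, was not tested.

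Kdm2b was the only enzyme transcript of the set called different between the diets, and its mean in ILC2s of high-fat mice was 0.529 of that in normal-diet mice. Across all 11483 tested genes, limma at a Benjamini-Hochberg adjusted p of 0.05, fitted to log2(FPKM + 1), called 328 genes, or 2.86%, of which 112 (0.975%) were higher and 216 (1.88%) lower with the high-fat diet. The direction of the calls depended on scaling, since 226 genes were called higher and 204 lower after quantile normalization, and 1117 higher and 388 lower when libraries were scaled to total recovered reads, which put the median log2 fold change of all genes at 0.14. Of the 56 enzymes 1 was called, or 1.79%, and the other 55 were not, so the share called was near that of all genes. Fold changes were above 0 for 28 enzymes and below 0 for 28, with a median of -0.00 on the log2(FPKM + 1) scale, beside -0.02 for all tested genes. At an unadjusted p under 0.05 stood 8 enzymes, 4 higher and 4 lower, or 14.3% beside 18.1% of all genes. In 3 tested enzymes, or 5.36%, no high-fat library lay within the normal-diet range or the reverse, beside 11.1% of all genes. Kdm2b and Kdm4b were lower without overlap, as were 6.76% of all genes, and Sirt4 was higher without overlap, as were 4.31%.

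**Figure D1:**
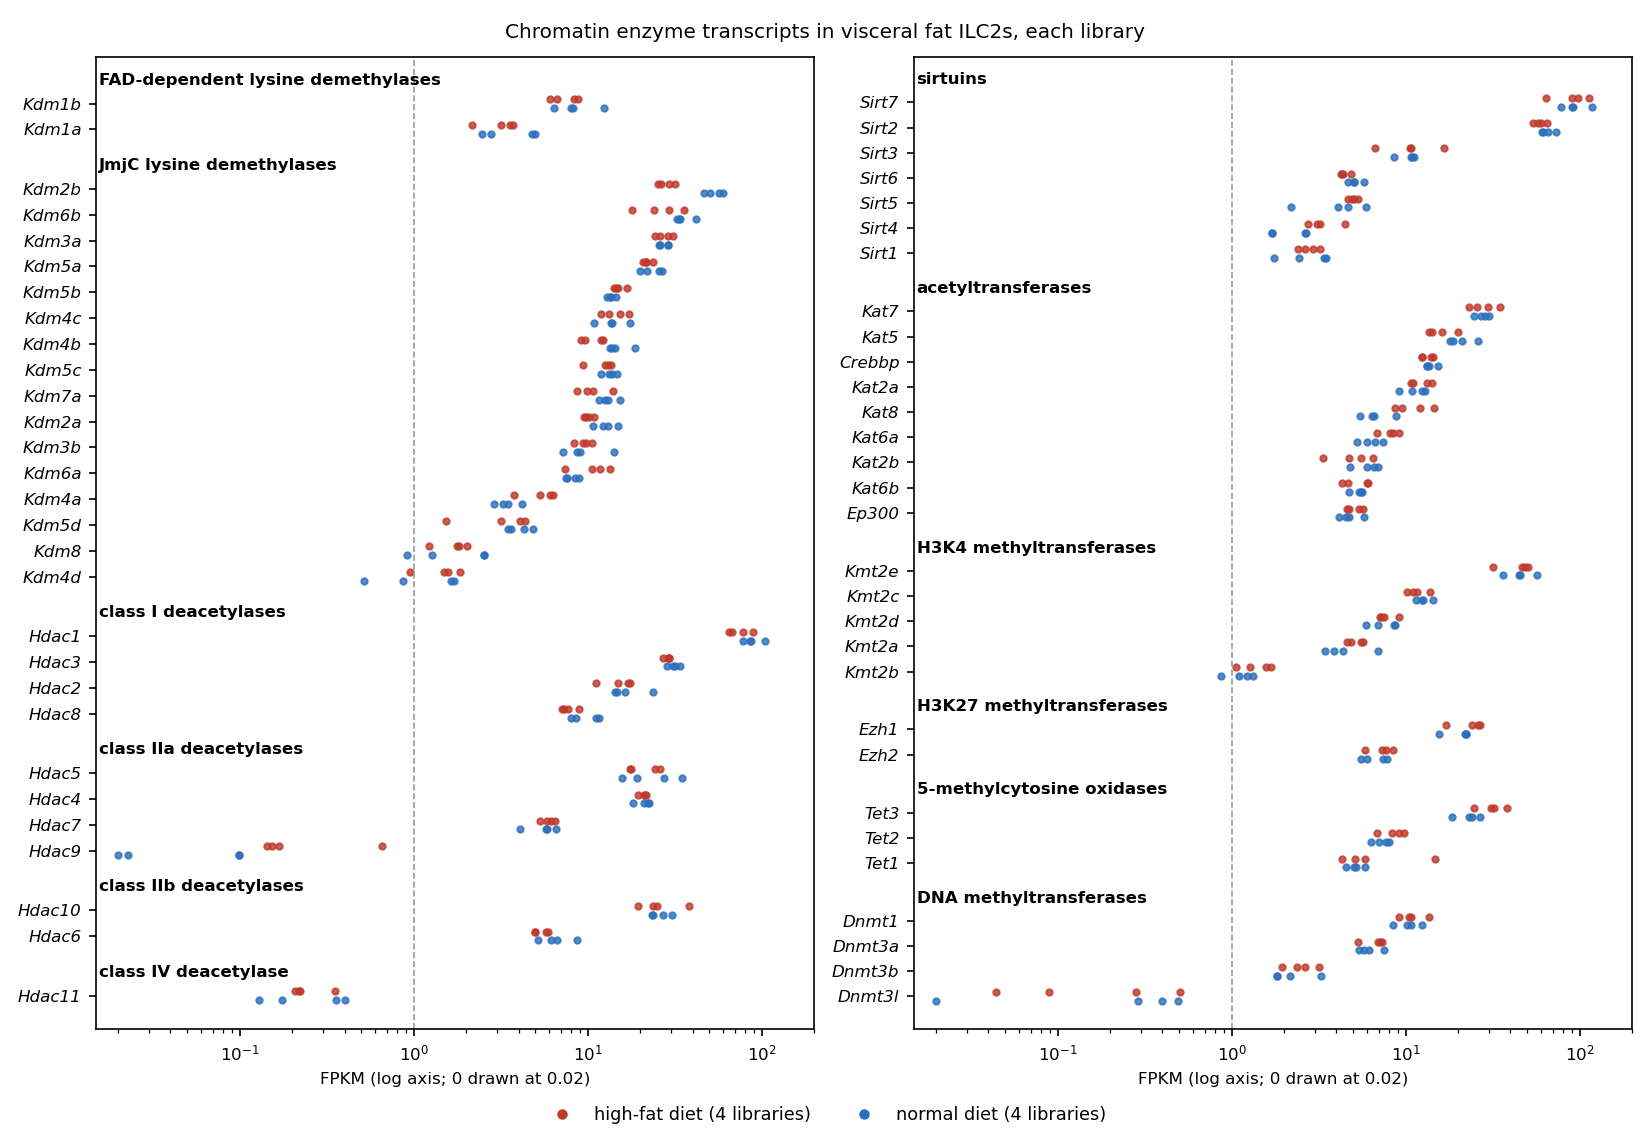
FPKM of the 59 enzymes in each library, on a log axis, by enzyme class, with high-fat points drawn above normal-diet points and a dashed line at 1 FPKM. The diets separate for Kdm2b, Kdm4b and Sirt4 among tested enzymes, and Hdac9, Hdac11 and Dnmt3l lie under the line.

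By level, the tested enzymes ranged in mean over all 8 libraries from 1.27 FPKM for Kmt2b, an H3K4 methyltransferase, to 92.8 FPKM for Sirt7, a nucleolar deacetylase. The median enzyme stood at 10.2 FPKM, beside 9.57 FPKM for all tested genes. Hdac1, a deacetylase of the NuRD, Sin3 and CoREST complexes, followed Sirt7 with 81.5 FPKM, and Sirt2, a largely cytoplasmic tubulin deacetylase, came next with 62.3 FPKM. The ranges of Sirt7 and Hdac1 overlapped across libraries, so their order was not beyond the spread. Order by FPKM also rests on the gene length behind the values, found as 1165 bases for Sirt7 and 1974 bases for Hdac1. Sirt7 had fewer recovered reads than Hdac1 in every library. Behind each tested enzyme stood between 20 reads (Kdm4d) and 4357 reads (Kmt2e) per library.

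**Figure D2:**
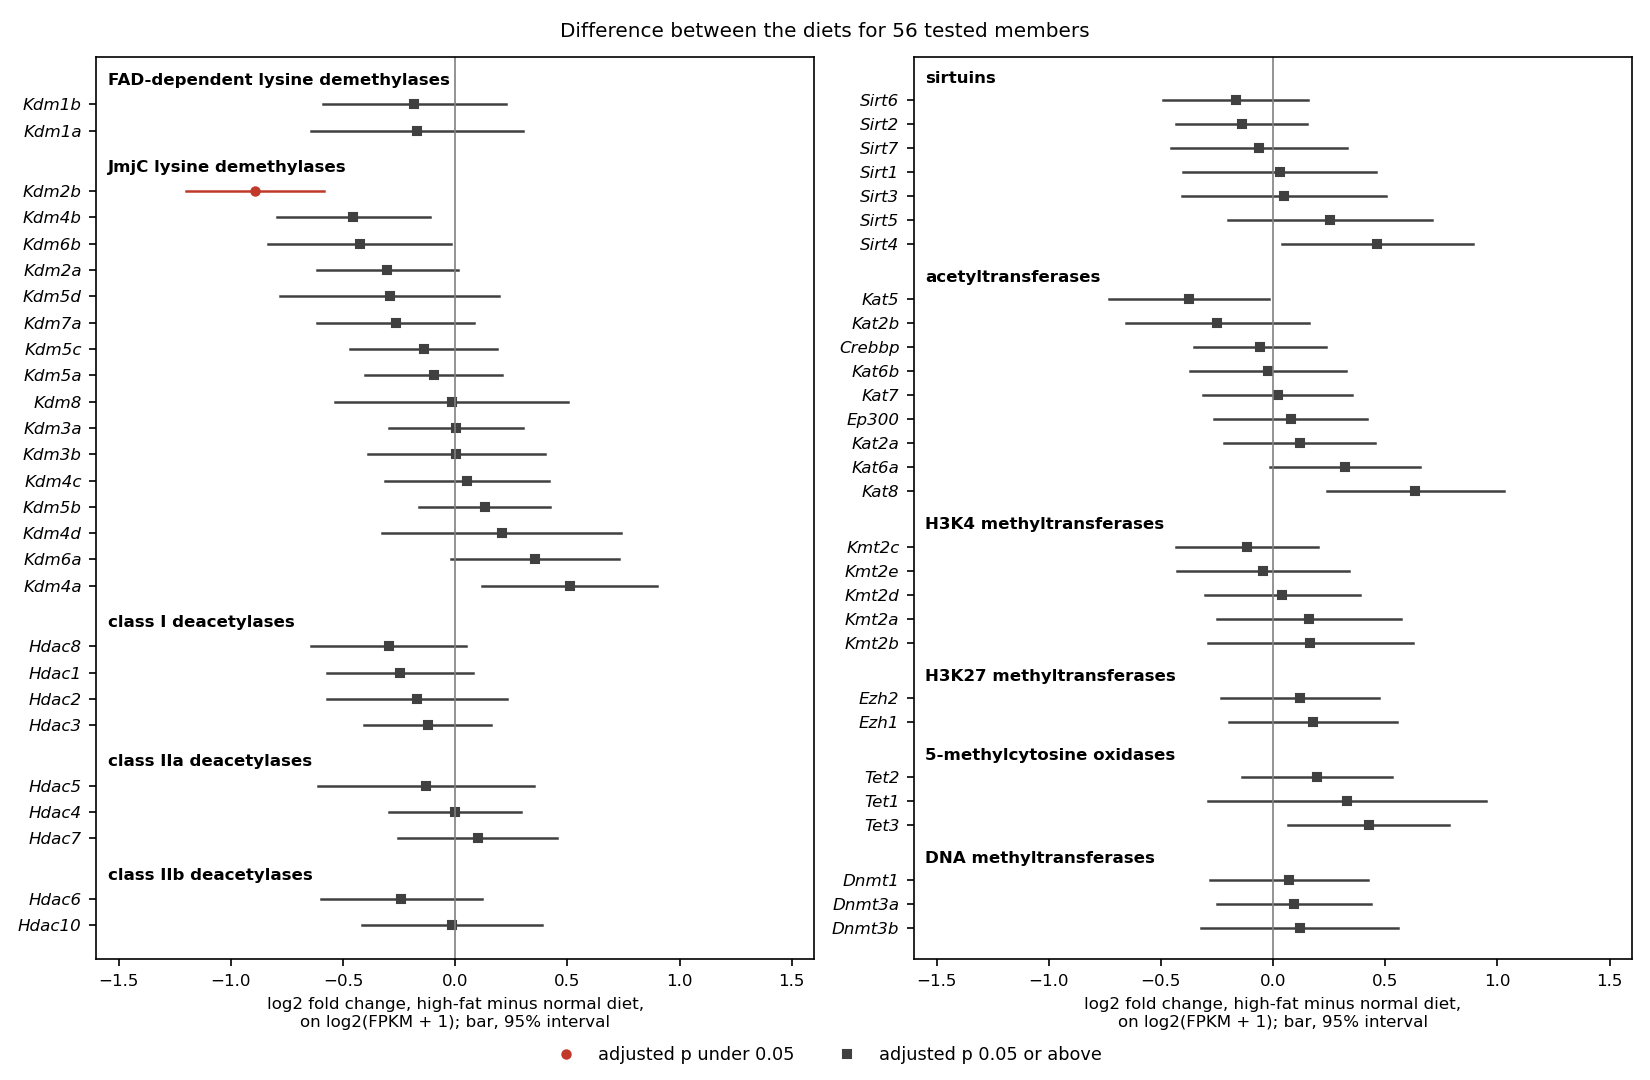
Log2 fold change, high-fat minus normal diet, on the log2(FPKM + 1) scale for the 56 tested enzymes, with bars for the 95% interval. The interval of Kdm2b runs from -1.20 to -0.58, and its point is the only 1 drawn as called at an adjusted p under 0.05.

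Among the 16 JmjC demethylases, which use iron and 2-oxoglutarate, 1 was called lower and none higher, 7 fold changes were above 0 and 9 below, and the median was -0.06. Kdm2b (ENSMUSG00000029475, chr5:122870665-122989823, minus strand) had 25.3, 31.7, 29.2 and 26.5 FPKM in high-fat libraries, against 56.9, 50.3, 46.2 and 59.6 FPKM in normal-diet libraries. Every high-fat library lay well below every normal-diet library, and the spread within each diet was small beside the gap. The means were 28.2 ± 2.87 FPKM with the high-fat diet and 53.2 ± 6.07 FPKM with the normal diet (SD, n = 4 each), a log2 fold change of -0.89 ± 0.14 (SE; 95% interval -1.20 to -0.58) with a limma adjusted p of 0.00527. Behind these values stood 1455 to 1832 reads per high-fat library and 2803 to 3145 per normal-diet library. By p, Kdm2b ranked 43 among the tested genes, and by size of fall it ranked 125. It was called in all 19 alternatives, with log2 fold changes of -0.97 to -0.70 and adjusted p up to 0.0329.

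The library type does not mark the strand, and 627 of the 10869 annotated exon bases of Kdm2b overlap Rnf34, a ubiquitin ligase gene on the opposite strand. Rnf34 itself had 9.77 to 13.3 FPKM in high-fat libraries and 11.2 to 12.3 FPKM in normal-diet libraries, with a log2 fold change of -0.04 and a limma adjusted p of 0.935. A further 199 bases are shared with A930024E05Rik (log2 fold change 0.17, limma adjusted p = 0.718). Another 124 are shared with Gm44574, which had no value among the deposited genes.

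Kdm4b and Kdm4a, related demethylases of H3K9 and H3K36, had fold changes of opposite sign, and neither was called. Kdm4b (chr17:56326062-56402870, plus strand) had 9.15, 9.69, 12.2 and 11.9 FPKM in high-fat libraries, against 13.9, 14.3, 13.4 and 18.8 FPKM in normal-diet libraries. The diets did not overlap, though the gap between the nearest libraries was small and normal-diet library 4 stood above the rest. Its log2 fold change was -0.45 ± 0.16 (SE; limma adjusted p = 0.142). For Kdm4a, chosen after its values were seen, the libraries gave 5.33, 3.79, 6.28 and 6.09 FPKM with the high-fat diet, against 3.26, 2.87, 4.17 and 3.46 FPKM with the normal diet. High-fat library 2 fell inside the normal-diet range and the other high-fat libraries lay above it. Kdm4a thus had a log2 fold change of 0.51 ± 0.18 (SE; limma adjusted p = 0.150). The difference between the fold changes of Kdm4b and Kdm4a was not tested.

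The H3K27 demethylases Kdm6b and Kdm6a also pointed apart without a call. Kdm6b, the inducible member, had 29.2, 35.9, 24.1 and 17.9 FPKM in high-fat libraries, against 41.6, 33.9, 32.4 and 33.6 FPKM in normal-diet libraries. High-fat values were scattered, and library 2 of that diet lay inside the normal-diet range. The log2 fold change was -0.43 ± 0.19 (SE; limma adjusted p = 0.251), and 286 exon bases are shared with the antisense gene Kdm6bos. Kdm6a, an X-linked enzyme whose reads counting could split with its Y-linked relative Uty, and chosen after its values were seen, averaged 10.8 ± 2.56 FPKM with the high-fat diet and 8.09 ± 0.697 FPKM with the normal diet (SD, n = 4 each; log2 fold change 0.35, limma adjusted p = 0.305). Uty, listed among the partner genes and not in the set, went the other way without a call (log2 fold change -0.37, limma adjusted p = 0.254). Its libraries lay at 15.5 to 19.0 FPKM with the high-fat diet and 17.7 to 29.7 FPKM with the normal diet. Whether split reads play a part in these opposite signs was not tested. The X- and Y-linked pair Kdm5c and Kdm5d is uncertain in the same way. The other 11 JmjC genes had log2 fold changes between -0.30 (Kdm2a) and 0.21 (Kdm4d).

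**Figure D3:**
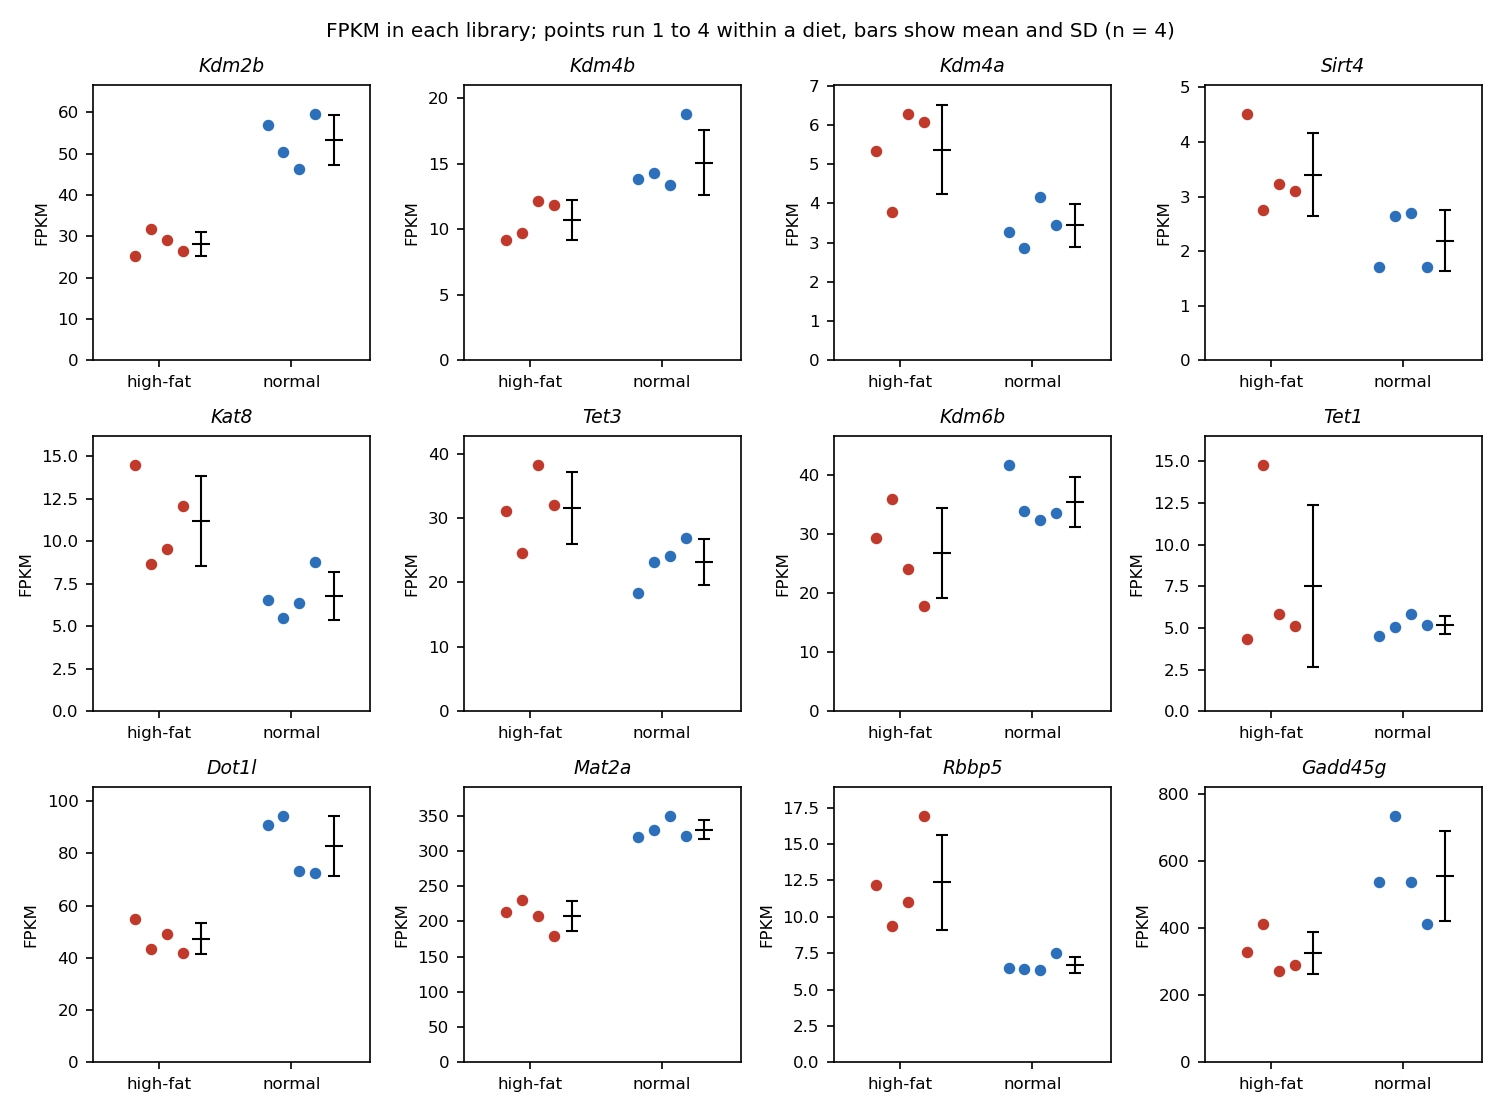
FPKM of 8 enzymes and 4 partner genes in each library, with 4 high-fat points left of 4 normal-diet points and bars for the mean and SD of each diet. Kdm2b lies at 25.3 to 31.7 FPKM with the high-fat diet and 46.2 to 59.6 FPKM with the normal diet, and Tet1 shows a lone value of 14.8 FPKM in high-fat library 2.

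The FAD-dependent demethylases Kdm1a and Kdm1b, which remove mono- and dimethyl marks from H3K4, were not called. Their means over all 8 libraries were 3.45 and 8.10 FPKM, beside a median of 9.57 FPKM for all tested genes. Kdm1b averaged 7.45 ± 1.27 FPKM with the high-fat diet and 8.74 ± 2.56 FPKM with the normal diet (SD, n = 4 each), a log2 fold change of -0.18 (limma adjusted p = 0.673). Kdm1b shares 505 exon bases with Dek on the opposite strand. Kdm1a averaged 3.15 ± 0.691 FPKM with the high-fat diet and 3.75 ± 1.31 FPKM with the normal diet, a log2 fold change of -0.17 (limma adjusted p = 0.749).

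None of the class I deacetylases, the zinc-dependent nuclear enzymes, was called. All 4 fold changes were below 0, with a median of -0.21, but when libraries were scaled to total recovered reads 2 of the 4 were above 0. Hdac1 had 77.9, 65.0, 67.1 and 88.5 FPKM in high-fat libraries, against 85.2, 104, 77.6 and 86.8 FPKM in normal-diet libraries, and the diets overlapped. Its log2 fold change was -0.24 (95% interval -0.57 to 0.08; limma adjusted p = 0.430). Hdac3, the catalytic subunit of the NCoR and SMRT corepressors, was the steadiest of the class within a diet, at 28.6 ± 0.976 FPKM with the high-fat diet and 31.3 ± 2.08 FPKM with the normal diet (SD, n = 4 each; log2 fold change -0.12, limma adjusted p = 0.682). Hdac2, the close relative of Hdac1, and Hdac8 had log2 fold changes of -0.17 and -0.30.

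Class IIa deacetylases, which bind MEF2 factors and have weak catalytic activity of their own, were present through Hdac4, Hdac5 and Hdac7, and none of these was called. Hdac4 averaged 20.8 ± 1.03 FPKM with the high-fat diet and 20.9 ± 2.004 FPKM with the normal diet (SD, n = 4 each), and its log2 fold change was -0.00 (95% interval -0.30 to 0.29; limma adjusted p = 0.995). Of the 15813 annotated exon bases of Hdac4, 3536 are shared with Gm26720 on the opposite strand. Hdac5 ranged more widely, from 17.5 to 26.1 FPKM with the high-fat diet, against 15.8 to 34.6 FPKM with the normal diet, with a log2 fold change of -0.13 (limma adjusted p = 0.822). Hdac9 did not pass the level filter: it had 0.143, 0.661, 0.153 and 0.167 FPKM in high-fat libraries, against 0.0994, 0.0227, 0.0991 and 0 FPKM in normal-diet libraries, on at most 28 reads. At this depth all its high-fat values lay above its normal-diet values. In class IIb, Hdac10, a polyamine deacetylase, had a log2 fold change of -0.01 (limma adjusted p = 0.981), and Hdac6, the cytoplasmic tubulin deacetylase, had -0.24 (limma adjusted p = 0.489). Hdac11, the sole class IV enzyme, stayed under the filter at 0.206 to 0.352 FPKM with the high-fat diet and 0.129 to 0.405 FPKM with the normal diet.

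All 7 sirtuins, the NAD-dependent deacylases, were tested and none was called. The most abundant, Sirt7, averaged 91.3 ± 20.7 FPKM with the high-fat diet and 94.4 ± 16.3 FPKM with the normal diet (SD, n = 4 each; log2 fold change -0.06, limma adjusted p = 0.901). Sirt2 averaged 59.2 ± 4.61 FPKM with the high-fat diet and 65.3 ± 5.85 FPKM with the normal diet (log2 fold change -0.14, limma adjusted p = 0.649). The mitochondrial Sirt4 was the only sirtuin whose diets did not overlap, as for 11.1% of all genes. It lies at chr5:115478010-115484725 on the minus strand and had 4.51, 2.76, 3.22 and 3.11 FPKM in high-fat libraries, against 1.72, 2.65, 2.69 and 1.71 FPKM in normal-diet libraries. The nearest libraries of the diets were almost equal, and only 30 to 93 reads lay behind each value. Its log2 fold change was 0.46 ± 0.20 (SE; limma adjusted p = 0.230).

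Acetyltransferases held the largest uncalled fold change of the set, that of Kat8, but 0 of 9 were called, and 2 of them (22.2%) were under an unadjusted p of 0.05, beside 18.1% of all genes. Kat8, the MOF enzyme that acetylates H4K16, lies at chr7:127912516-127925837 on the plus strand, was chosen after its values were seen and had 14.5, 8.66, 9.53 and 12.1 FPKM in high-fat libraries, against 6.57, 5.47, 6.39 and 8.81 FPKM in normal-diet libraries. The diets overlapped narrowly, at high-fat library 2 and normal-diet library 4. The log2 fold change was 0.63 ± 0.19 (SE; limma adjusted p = 0.0799). Without high-fat library 2, Kat8 was called higher with a log2 fold change of 0.74 and a limma adjusted p of 0.0354, when 4.67% of all genes were called. It was called in 3 of 19 alternatives, the others being the filter at 5 FPKM, which called 6.29% of genes, and scaling to total recovered reads, which called 13.1%. Kat5, the TIP60 enzyme, had 14.1, 19.96, 16.2 and 13.7 FPKM in high-fat libraries, against 18.8, 26.2, 21.2 and 18.0 FPKM in normal-diet libraries. High-fat values lay mostly lower with some overlap, and the log2 fold change was -0.38 ± 0.17 (SE; limma adjusted p = 0.247). Kat5 shares 426 exon bases with Rnaseh2c on the opposite strand.

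Kat7, the HBO1 enzyme, was the most abundant acetyltransferase and averaged 28.5 ± 5.13 FPKM with the high-fat diet and 27.8 ± 2.32 FPKM with the normal diet (SD, n = 4 each; log2 fold change 0.02, limma adjusted p = 0.965). The general coactivators Crebbp and Ep300 had log2 fold changes of -0.06 and 0.08, with 95% intervals of -0.35 to 0.24 and -0.26 to 0.42.

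No histone methyltransferase of the set was called. In the Kmt2 group, Kmt2e, also named MLL5 and not known for H3K4 activity of its own, averaged 44.5 ± 8.53 FPKM with the high-fat diet and 45.8 ± 8.48 FPKM with the normal diet (SD, n = 4 each; log2 fold change -0.05, limma adjusted p = 0.930). Kmt2e shares 972 exon bases with Srpk2 on the opposite strand. The enhancer enzyme Kmt2c had a log2 fold change of -0.11 (limma adjusted p = 0.748), and the 5 genes together ran from -0.11 to 0.17. Ezh1 and Ezh2, the alternative catalytic subunits of Polycomb repressive complex 2 (PRC2), had log2 fold changes of 0.18 and 0.12 (limma adjusted p = 0.646 and 0.768). Ezh1 was the more abundant, at 23.5 ± 4.44 FPKM with the high-fat diet and 20.5 ± 3.24 FPKM with the normal diet, and Ezh2 averaged 7.35 ± 1.09 FPKM with the high-fat diet and 6.70 ± 1.09 FPKM with the normal diet (SD, n = 4 each). Ezh1 lay above Ezh2 in every library.

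All 6 tested enzymes of DNA methylation and its removal had fold changes above 0, and none was called. The fold change of Dnmt1 was below 0 with the recurring scaling factor divided out and with recovered reads under the deposited scaling. Tet3, the most abundant of the Tet oxidases by FPKM, had 31.1, 24.6, 38.2 and 32.1 FPKM in high-fat libraries, against 18.4, 23.2, 24.0 and 26.9 FPKM in normal-diet libraries. That order rests on lengths found as 3527 bases for Tet3 and 9017 for Tet2, beside annotated exons of 16695 and 16870 bases. The diets overlapped at high-fat library 2. For Tet3 the log2 fold change was 0.43 ± 0.17 (SE; limma adjusted p = 0.189). Tet1, chosen after its values were seen, had 4.33, 14.8, 5.83 and 5.14 FPKM in high-fat libraries, against 4.54, 5.06, 5.84 and 5.17 FPKM in normal-diet libraries. High-fat library 2 alone stood out, and the other 7 libraries lay close together. The log2 fold change of 0.33 (limma adjusted p = 0.596) became -0.02 without that library. The length found for Tet1 was 1477 bases, beside annotated exons of 15457 bases, with 70 to 201 reads per library. Tet2 had a log2 fold change of 0.20 (limma adjusted p = 0.554).

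Among DNA methyltransferases, the maintenance enzyme Dnmt1 averaged 11.01 ± 1.93 FPKM with the high-fat diet and 10.4 ± 1.63 FPKM with the normal diet (SD, n = 4 each; log2 fold change 0.07, limma adjusted p = 0.875). The de novo enzyme Dnmt3a averaged 6.69 ± 0.902 FPKM with the high-fat diet and 6.21 ± 0.926 FPKM with the normal diet (log2 fold change 0.09, limma adjusted p = 0.823). Dnmt3l, a cofactor without catalytic activity, stayed under the filter at 0.0444 to 0.505 FPKM with the high-fat diet and 0 to 0.495 FPKM with the normal diet.

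Genes of the same complexes and cofactor pathways were listed alongside the enzymes: of 215 listed, 207 were found and 193 tested, and 4 of these were called (2.07%), 1 higher and 3 lower, beside 2.86% of all tested genes, so the share was not above that of all genes. Dot1l, the H3K79 methyltransferase, was the only gene called of 22 tested among other histone methyltransferases. It had 54.7, 43.5, 49.2 and 41.8 FPKM in high-fat libraries, against 90.9, 94.2, 73.4 and 72.3 FPKM in normal-diet libraries. All high-fat values lay below all normal-diet values. In limma, Dot1l had a log2 fold change of -0.79 ± 0.15 (SE; adjusted p = 0.0119), and the adjusted p was 0.0529 without high-fat library 4. Mat2a, which makes the methyl donor S-adenosylmethionine, was the only gene called of 42 tested in cofactor metabolism. It averaged 207 ± 20.9 FPKM with the high-fat diet and 329.98 ± 13.6 FPKM with the normal diet (SD, n = 4 each). The high-fat libraries lay at 179.7 to 230.1 FPKM and the normal-diet libraries at 319.8 to 349 FPKM, without overlap. The log2 fold change was -0.67 ± 0.13 (SE; limma adjusted p = 0.0156), and the adjusted p was 0.0576 without high-fat library 3, 0.0626 without high-fat library 4, 0.0584 after quantile normalization and 0.0540 with a replicate block.

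Rbbp5, a core subunit of the COMPASS complexes in which Kmt2 enzymes work, was the only gene called of 12 tested in that list. It had 12.2, 9.38, 10.99 and 16.9 FPKM in high-fat libraries, against 6.52, 6.42, 6.38 and 7.50 FPKM in normal-diet libraries. The normal-diet values were tight and all lay below the high-fat values. Its log2 fold change was 0.77 ± 0.17 (SE; limma adjusted p = 0.0274), and the adjusted p ran from 0.0639 to 0.0895 without high-fat library 1, 3 or 4 or normal-diet library 1, 2 or 3. Rbbp5 was called in 11 of 19 alternatives, and its adjusted p was also 0.0951 without a filter on low values and 0.0557 with plain eBayes. Gadd45g, a stress-response gene linked to DNA demethylation, was called lower, the only call among 13 tested DNA methylation partners. It had 330.2, 413, 273 and 291 FPKM in high-fat libraries, against 539, 735, 539.5 and 412 FPKM in normal-diet libraries. High-fat library 2 and normal-diet library 4 were nearly equal. For Gadd45g the log2 fold change was -0.75 ± 0.19 (SE; limma adjusted p = 0.0428), and the adjusted p ran from 0.0790 to 0.138 without high-fat library 1, 3 or 4 or normal-diet library 1, 2 or 3. Gadd45g was called in 10 of 19 alternatives, and its adjusted p was also 0.127 without a filter on low values, 0.0873 with plain eBayes and 0.120 after quantile normalization.

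The other partner lists held no call. All 9 tested PRC2 genes other than Ezh1 and Ezh2, whose fold changes were above 0, had fold changes below 0, with a median of -0.24, but 2 were above 0 after quantile normalization and 3 when scaled to total recovered reads. The most abundant, the histone chaperone Rbbp7, averaged 144 ± 13.8 FPKM with the high-fat diet and 188 ± 45.4 FPKM with the normal diet (SD, n = 4 each; log2 fold change -0.36, limma adjusted p = 0.269). Deacetylase corepressors (26 tested), other histone demethylases (7), acetyltransferase partners (38) and acetyl-lysine readers (24) had medians of 0.01, -0.15, -0.07 and -0.03. Their most abundant genes were Sap18 (log2 fold change -0.22, limma adjusted p = 0.537), Jmjd6 (log2 fold change -0.15, adjusted p = 0.731), Morf4l2 (log2 fold change -0.30, adjusted p = 0.290) and Sp110 (log2 fold change 0.00, adjusted p = 0.998).

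**Figure D4:**
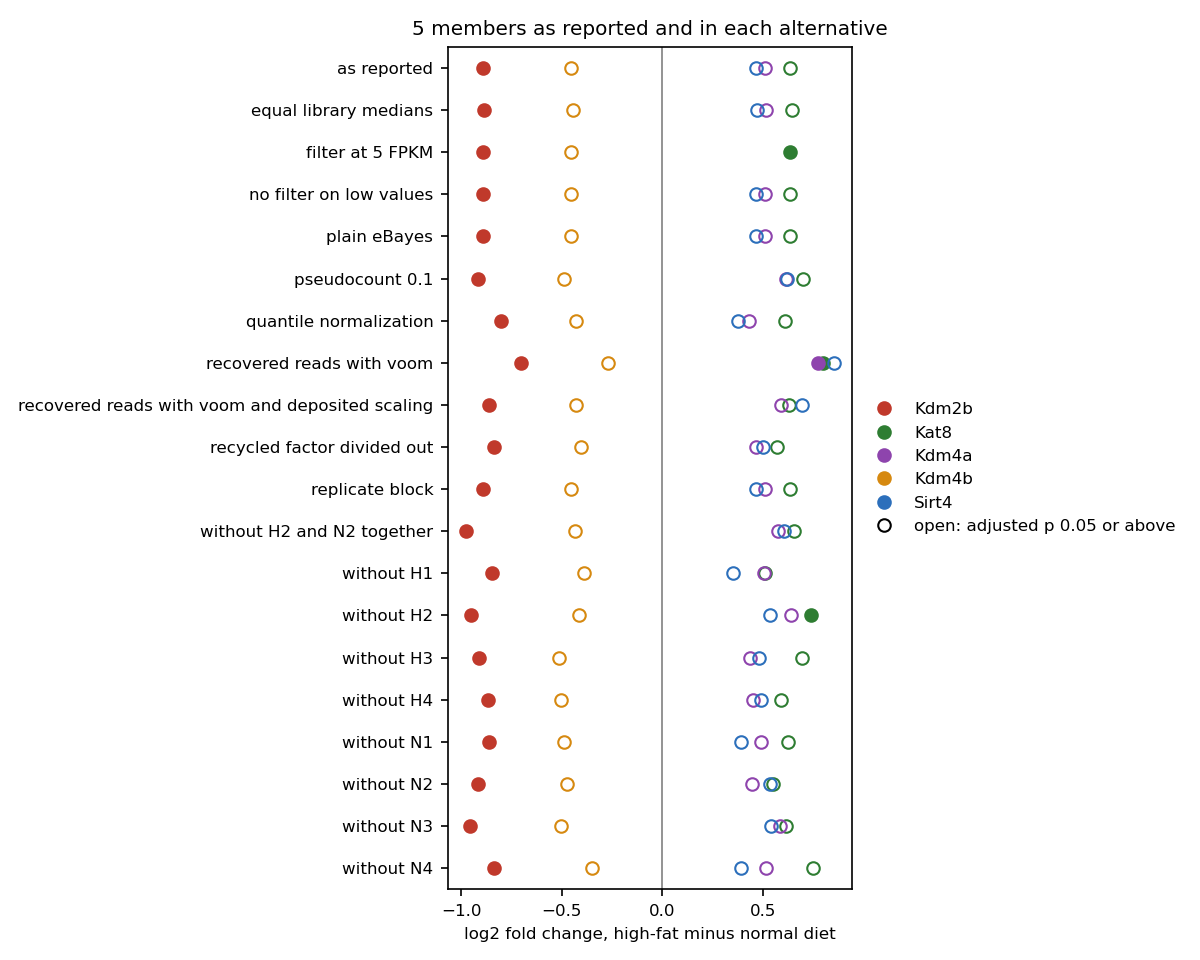
Log2 fold change, high-fat minus normal diet, of 5 enzymes as reported (top) and under 19 alternatives, with H and N for high-fat and normal-diet libraries. Filled points have an adjusted p under 0.05: Kdm2b is filled in every row, Kat8 in 3 alternatives, Kdm4a in 1, and Kdm4b and Sirt4 in none; Kdm4a and Sirt4 were not tested at the filter of 5 FPKM.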

How the data were processed

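Per the labels' protocols total RNA of sorted visceral fat ILC2s was turned into full-length cDNA (SMART-Seq HT) and transposase libraries, a type that does not mark the strand. HISAT2, Cufflinks and the build mm10 are named in the submitters' processing notes, without versions. Values were deposited as FPKM, per the file headers. Because 14605 of 39527 genes hold values below 0, the deposited columns were treated as a score with no fixed range, and genes with such values were left out. Within a library the deposited values also carry a recurring factor of 10 sizes, from 0.863 to 1.18. It differs between libraries and was kept in the main test, so it enters the quoted FPKM and fold changes. With it, whole reads were found for 100% of 24107 genes (relative tolerance 1e-06, at most 0.01 reads). The search allowed whole gene lengths only, so reads of some genes may be a multiple of the true number. Ezh1, Kdm6a and Tet3, for example, had even reads in all 8 libraries. Lengths found for Ezh1 and Kdm6a, 7865 and 11235 bases, exceed their annotated exons of 7440 and 8383 bases.

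Genes with at least 1 FPKM in at least 4 libraries (11483) were tested with limma 3.58.1 in R 4.3.3 (trend, robust, two-sided) on log2(FPKM + 1), which understates the change of low genes, and p-values were adjusted over all of them. On simulated data with 200 changed genes among 11483 for this comparison, 67% were recovered at a log2 fold change of 1 and 96% at 2, with 4.68% false calls. The simulated noise was independent between genes, so these shares do not cover differences that a library shares across genes. Changes smaller than 1, such as those of all tested enzymes, were not simulated. Alternatives were another pseudocount (0.1), other filters and scalings, recovered reads with limma's voom, a replicate block and leaving out libraries. Named were the enzymes called, those whose diets did not overlap, the 2 most abundant of each class, and the partner genes called or, in a list with none, the most abundant. Kdm4a, Kdm6a, Kat6a, Kat8, Kmt2a and Tet1 were added after their values were seen. Members and lists were chosen with earlier results of these data known. Coordinates are those of GENCODE M21 (GRCm38), and upstream windows those of RefSeq GRCm38.p6. Genes sharing exon bases or close copies are uncertain, since how shared reads were counted is not stated in the labels. This covers further enzymes whose overlaps are not given above.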

Additional observations from a re-analysis of the deposited data

Results flagged for a closer look

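In 8 of 118 groups of 4 libraries (6.78%) a single library stood apart from the other 3 of its diet by Dixon's gap test at its 95% critical value. Chance gives about 1 in 20 such groups. High-fat library 2 stood high for Tet1, at 14.8 FPKM beside 4.33 to 5.83 FPKM in the other high-fat libraries, and for Hdac9, at 0.661 FPKM beside 0.143 to 0.167 FPKM. High-fat library 3 stood high for Hdac11, at 0.352 FPKM beside 0.206 to 0.221 FPKM, and high-fat library 1 for Sirt6, a chromatin deacetylase, at 4.88 FPKM beside 4.27 to 4.37 FPKM. Normal-diet library 1 stood high for Kdm6b, at 41.6 FPKM beside 32.4 to 33.9 FPKM in the other normal-diet libraries. The same library stood low for Ezh1, at 15.7 FPKM beside 22.0 to 22.3 FPKM, and for Sirt3, a mitochondrial deacylase, at 8.52 FPKM beside 10.7 to 11.1 FPKM. Normal-diet library 4 stood high for Kdm4b, at 18.8 FPKM beside 13.4 to 14.3 FPKM.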

How the results depend on the processing

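Kdm2b kept its call in all 19 alternatives, with log2 fold changes of -0.97 to -0.70. Without 1 library in turn, 129 to 536 genes were called (40 to 255 higher, 84 to 281 lower) and 1 to 2 enzymes (0 to 1 higher, 1 lower), the second being Kat8. Fewer genes were called without a filter on low values (130, with 41 higher and 89 lower), with plain eBayes (132 lower) and with a replicate block (191, with 113 lower). More were called with equal library medians (172 higher), quantile normalization (226 higher), the recurring factor divided out (571, with 185 higher and 386 lower), without library 2 of both diets (242 higher), at a filter of 5 FPKM (331 lower, 2 enzymes, 1 of them higher), with recovered reads scaled to their totals (1505, with 1117 higher and 388 lower) and with recovered reads under the deposited scaling (847, with 287 higher and 560 lower), the last an alternative chosen after seeing the data. Scaling to total reads called 9 enzymes, Kdm2b lower and 8 higher (Ezh1, Kat6a, Kat8, Kdm4a, Kdm6a, Kmt2a, Tet2 and Tet3), where the median of all genes stood at 0.14. For Ezh1, Kdm6a and Tet3 the recovered reads may be a multiple of the true number, and the effect on their calls was not tested. The causes were not tested. Replicate numbers did not pair the libraries (same-number correlations -0.25 to 0.08, none highest with its own number), and the replicate block changed no enzyme's call and left Mat2a at an adjusted p of 0.0540.

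Among the named genes, signs turned only for genes that were not called. Scaled to total reads, log2 fold changes were 0.099 for Hdac10, 0.077 for Hdac3, 0.065 for Hdac4, 0.035 for Kdm1b, 0.068 for Kmt2e, 0.063 for Sirt2, 0.032 for Sirt7 and 0.022 for Sap18. After quantile normalization they were 0.049 for Hdac10, 0.063 for Hdac4, 0.069 for Kmt2e, 0.011 for Sirt2 and 0.080 for Sirt7, and with equal medians 0.0059 for Hdac4. With the factor divided out they were -0.013 for Dnmt1 and -0.054 for Sp110, and under the deposited scaling -0.010 for Dnmt1 and -0.055 for Sp110. Without library 2 of both diets they were 0.072 for Hdac10, 0.14 for Hdac5, 0.061 for Kdm1b, 0.00051 for Kmt2c, 0.21 for Kmt2e, 0.20 for Sirt7, -0.022 for Tet1, 0.061 for Jmjd6 and -0.045 for Sp110. Without 1 library in turn the range was -0.033 to 0.15 for Dnmt1, -0.20 to 0.12 for Hdac10, -0.068 to 0.032 for Hdac4, -0.31 to 0.054 for Hdac5, -0.080 to 0.11 for Kat7, -0.15 to 0.10 for Kmt2e, -0.18 to 0.097 for Sirt7, -0.015 to 0.51 for Tet1, -0.25 to 0.021 for Jmjd6 and -0.085 to 0.10 for Sp110.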

Other observations

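The Polycomb complex that Kdm2b works in was listed after the Kdm2b value was known, so its genes give no independent evidence. Of 9 genes found 7 were tested and none was called, with a median log2 fold change of -0.12. The ubiquitin ligase subunit Rnf2 had a log2 fold change of -0.38 and its partner Ring1 0.03. Pcgf1, the subunit that defines the complex, had 0.38, Yaf2 0.64, Bcor -0.12, Skp1a -0.26 and Usp7 -0.24. Rybp and Bcorl1 did not pass the level filter.

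Among the 42 tested genes of cofactor metabolism, 12 had an unadjusted p under 0.05, 3 higher and 9 lower, or 28.6% beside 18.1% of all tested genes, and the median log2 fold change was -0.08. Across the lists this share ran from 4.55% for other histone methyltransferases (22 tested) to 33.3% for PRC2 (9 tested). Gadd45b, a relative of Gadd45g, was the most abundant DNA methylation partner, with a log2 fold change of 0.63 and a limma adjusted p of 0.0863, opposite in sign to Gadd45g.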
